A study of Homo sapiens with 4 samples.

Results

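Transcripts of the interleukin-6 (IL6) cytokine family were counted by RNA-seq in the human glioblastoma line T98G, an established cell line, with and without overexpression of LGP2. The members are 9 genes of 20913 in the deposited count table, taken by name: the ligands IL6, LIF and IL11, the receptor chains IL6ST, IL6R, OSMR and LIFR, the transcription factor STAT3 and its feedback inhibitor SOCS3. The rows were taken by gene name and not by a cut-off on their values, but with earlier results of these data known. The vector group holds T98G cells carrying a vector, as replicates 2 and 3, and the LGP2 overexpression group holds T98G cells overexpressing LGP2, also as replicates 2 and 3, with a column name that adds the word flag. LGP2 is encoded by DHX58, a cytoplasmic sensor of viral RNA related to RIG-I. The growth text shared by all 4 libraries speaks of 293T cells and their treatment text of LGP2 overexpression, while the genotype field separates the groups. The labels do not say whether the cells were clones or pools, or whether each replicate had its own culture. The p-values therefore reflect the spread between these particular libraries, which may be technical.

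Cytokines of this family signal through a shared receptor chain, gp130, the product of IL6ST. IL6 and IL11 bind gp130 together with their own chains, IL6R and IL11RA, while LIF uses gp130 with LIFR, and oncostatin M uses gp130 with OSMR or LIFR. Janus kinases bound to these chains phosphorylate STAT3, which enters the nucleus and switches on genes that include SOCS3, and SOCS3 binds gp130 and the kinases and stops the signal. A soluble form of IL6R lets IL6 act on cells that carry gp130 but little IL6R of their own. In glioblastoma the family is best known for autocrine and paracrine IL6 and LIF, for STAT3 activity and for the mesenchymal state of the tumour cells.

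Library totals ran from 56033379 to 63932198 counts. DHX58 had 377 and 571 counts in the vector libraries against 30509 and 34045 with LGP2. Of 6 glioma line markers 4 were in the table. VIM lay between 2922 and 3829 CPM (counts per 1000000 counts of the library total) and CD44 between 1664 and 2090 CPM, while NES and GFAP were below 1 CPM in every library. Of 7 macrophage and microglia markers 4 were in the table, with a summed level of 95.7 to 110 CPM in vector and 83.4 to 90.7 CPM with LGP2. Nearly all of that sum was CD68. CD14 was at 0 counts in both LGP2 libraries, and CD14, CSF1R and ITGAM stayed below 1 CPM in every library. Of 4 endothelial markers only PECAM1 was in the table, between 3.11 and 7.90 CPM. The part of such cells in the levels below was not tested. In bulk RNA, fewer cells that express a gene and less RNA per cell cannot be told apart.

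All 9 members were detected in every library, with 163 to 15739 counts, and all passed the filter on low counts. By edgeR's quasi-likelihood test with Benjamini-Hochberg adjustment over the 17863 genes tested, 0 of 9 were called at an adjusted p under 0.05, where 0.0168% of all tested genes were called. DESeq2 and limma-voom also called 0 of 9, with 0.11% and 0.0336% of all genes called. At an unadjusted p under 0.05 there were 2 members, IL6 and IL6ST, beside 4.46% of all tested genes. The log2 fold change of LGP2 over vector lay above 0 for 4 members and below 0 for 5, with a median of -0.029 beside -0.0080 over all tested genes. The groups did not overlap for 2 members, IL6ST and IL6R, where 32.3% of all tested genes had groups that did not overlap. For 6 members (LIF, IL11, IL6R, OSMR, STAT3 and SOCS3) a 2-fold change either way lay outside the 95% interval, as it did for 61.1% of all tested genes.

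**Figure D1:**
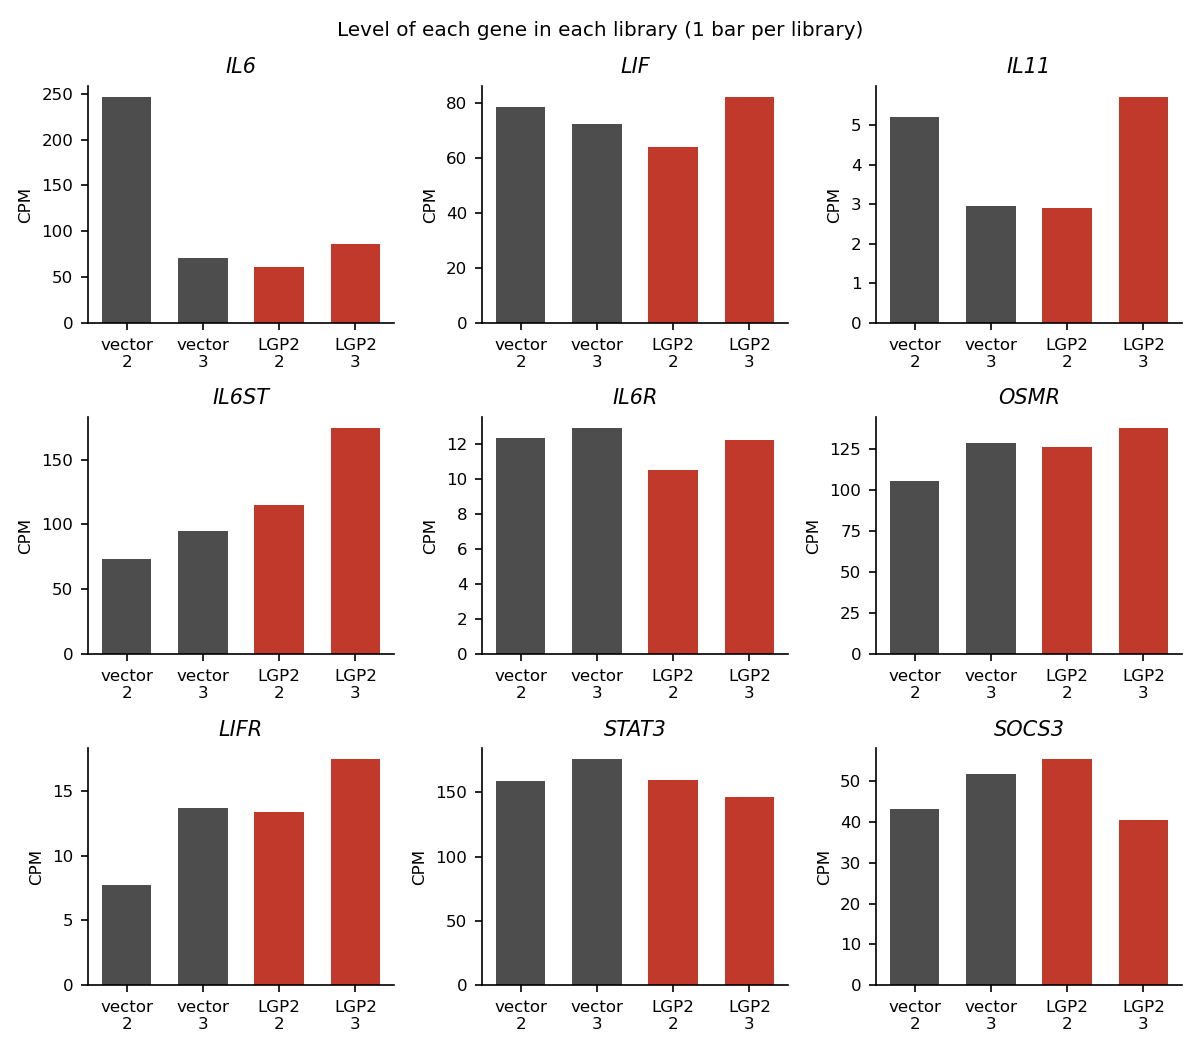
Level of each of the 9 genes in each library, in CPM, with 1 bar per library, vector in grey and LGP2 overexpression in red. IL6 stands at 246 CPM in vector replicate 2 against 61.2 to 86.3 CPM in the other libraries, and IL6ST is higher in both LGP2 libraries than in both vector libraries.

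Per length of exon the members fell into a high and a low tier. Lengths are those of all exons of a gene in GENCODE 29, merged, so a gene with many rare exons is set too low. IL6 led in every library, at 119 and 34.1 CPM per kilobase in vector replicates 2 and 3 and at 29.6 and 41.7 CPM per kilobase in LGP2 replicates 2 and 3. LIF, STAT3, SOCS3 and OSMR followed with means of 18.7, 18.2, 17.5 and 17.3 CPM per kilobase, and the ranges of their levels over the libraries overlapped, so their order is not resolved. IL6ST ranged from 7.92 to 18.7 CPM per kilobase and overlapped that group. IL6R, IL11 and LIFR formed the low tier, with means of 1.86, 1.57 and 1.10 CPM per kilobase and ranges that overlapped. The highest value in the low tier was 2.13 CPM per kilobase, for IL11, and lay under the lowest value of IL6ST. T98G cells thus held transcripts of the shared chain gp130 and of OSMR at several times the level of IL6R and LIFR, in all 4 libraries.

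**Figure D2:**
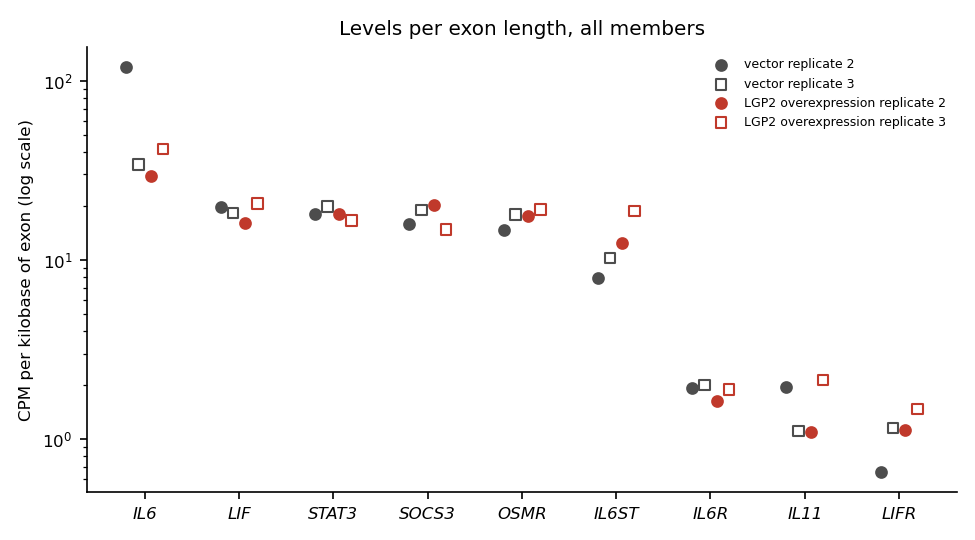
Level of each gene per kilobase of merged exon (CPM per kilobase, log axis), ordered by the mean over the 4 libraries, with 1 point per library. IL6 lies above the rest in each library, and IL6R, IL11 and LIFR lie between 0.654 and 2.13 CPM per kilobase.

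IL6, the cytokine that gives the family its name, was high in a single vector library. Its gene lies at chr7:22725884-22732002 on the plus strand (GENCODE 29, GRCh38) and is protein coding. IL6 had 15739 counts in vector replicate 2, 4213 in vector replicate 3, 3431 in LGP2 replicate 2 and 5463 in LGP2 replicate 3. These are 246, 70.6, 61.2 and 86.3 CPM. Both LGP2 libraries lay close to vector replicate 3, on either side of it, and the groups overlapped. Counting error was far smaller than this spread, with an exact Poisson 95% interval of 242 to 250 CPM in vector replicate 2 and 68.5 to 72.8 CPM in vector replicate 3. Such intervals cover counting error only. The group levels were 158 ± 124 CPM in the vector group and 73.8 ± 17.7 CPM in the LGP2 group (SD, n = 2 per group). On the log2 scale LGP2 over vector was -1.18 (95% interval -2.16 to -0.19, SE 0.44, edgeR adjusted p = 0.998). Without vector replicate 2 it was 0.064 (adjusted p = 0.9999), in a fit that called 0.418% of tested genes. Without vector replicate 3 it was -1.84 and passed (adjusted p = 9.2e-17), in a fit whose only vector library was replicate 2 and whose spread came from the LGP2 pair alone, where 2.31% of tested genes were called. The sign and size of the IL6 difference between the groups therefore depended on vector replicate 2.

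Within the vector group, IL6 was 3.49-fold higher in replicate 2 than in replicate 3. Among the 10784 tested genes that averaged at least 5 CPM, IL6 ranked 23 by the size of this difference between vector replicates, and the median gene differed 1.16-fold. Between the LGP2 libraries IL6 was 1.41-fold higher in replicate 3, and 7.14% of the same genes differed more. The other ligand genes did not share the high value of IL6 in vector replicate 2 to that degree, as LIF differed 1.09-fold and IL11 1.75-fold between the vector libraries.

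The start region of IL6 and of IL11 is shown because these ligands differed most between replicates. Both are the 250 bases before the RefSeq start (GRCh38.p14), IL6 at chr7:22726950-22727199 on the plus strand and IL11 at chr19:55370464-55370713 on the minus strand. Capitals mark matches to any of 5 motifs searched on both strands: the NF-kB consensus, AP-1 (TGANTCA), STAT (TTCNNNGAA), C/EBP (TTGCNNAA) and the CRE half-site (TGACG).
IL6: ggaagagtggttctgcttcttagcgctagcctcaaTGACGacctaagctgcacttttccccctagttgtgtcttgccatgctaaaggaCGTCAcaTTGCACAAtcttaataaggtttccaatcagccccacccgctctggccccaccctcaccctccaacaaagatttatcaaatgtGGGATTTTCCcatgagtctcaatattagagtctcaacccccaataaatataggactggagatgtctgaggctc
IL11: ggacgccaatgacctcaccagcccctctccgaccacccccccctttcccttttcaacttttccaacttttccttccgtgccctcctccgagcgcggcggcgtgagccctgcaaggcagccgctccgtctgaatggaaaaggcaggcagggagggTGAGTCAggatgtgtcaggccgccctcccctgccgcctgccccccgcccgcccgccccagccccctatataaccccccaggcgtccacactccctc
In IL6 the window held an NF-kB match, GGGATTTTCC, from -73 to -64 relative to the start, a C/EBP match, TTGCACAA, from -155 to -148, and CRE half-sites at -215 to -211 and -162 to -158. In IL11 it held an AP-1 match from -96 to -90. No matches overlapped each other. The share of 35116 RefSeq promoter windows of the same length with a match was 5.21% for the NF-kB consensus, 6.57% for AP-1, 6.57% for STAT, 9.05% for C/EBP and 21.2% for the CRE half-site. NF-kB and C/EBP factors are known inducers of IL6. A match is a description of the letters, and binding was not measured here. The windows of IL6ST, IL6R and SOCS3 held none of the 5 motifs, OSMR held a C/EBP match and STAT3 a CRE half-site. For SOCS3 the windows were chr17:78360926-78361175 and chr17:78359668-78359917, placed by RefSeq starts. Neither covers the bases just before chr17:78360077, the start of SOCS3 in GENCODE. Motifs in those bases were not searched, so their absence there is not shown. LIFR has 3 windows, of which 2 held a STAT match and 1 of these also a C/EBP match.

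Among the 3 genes with the pattern most like that of IL6 over the 4 libraries were AL365205.1 and DERPC, by Euclidean distance of log2 CPM centred on each gene's mean. Their distances were 0.34 and 0.56 on the log2 scale, beside a median distance of 1.66 to the 10783 genes compared. DERPC was at 50.0 and 17.8 CPM in vector replicates 2 and 3 and at 20.3 and 18.3 CPM in LGP2 replicates 2 and 3. AL365205.1 was at 103, 36.5, 35.5 and 42.7 CPM in the same order. It shares exons with PRICKLE4 and TOMM6 on the same strand, so its counts are uncertain. Both stood apart in vector replicate 2, which follows from choosing them by their likeness to IL6. With all libraries neither was called (adjusted p = 0.998 for each by edgeR). Without vector replicate 3 the log2 fold change was -1.49 for AL365205.1 and -1.47 for DERPC. Without vector replicate 2 it was 0.10 for AL365205.1 and 0.12 for DERPC.

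LIF, a cytokine known for holding stem cells undifferentiated and for its secretion by glioma cells, stayed between 63.98 and 82.1 CPM. Its gene lies at chr22:30240447-30246851 on the minus strand and is protein coding. LIF was at 78.6 and 72.4 CPM in vector replicates 2 and 3 and at 63.98 and 82.1 CPM in LGP2 replicates 2 and 3. The LGP2 libraries held both the lowest and the highest value, so the groups overlapped. These libraries differed 1.28-fold, and 15.8% of the 10784 tested genes that averaged at least 5 CPM differed more between them. The log2 ratio of LGP2 to vector was -0.10 (95% interval -0.45 to 0.26, SE 0.16, edgeR adjusted p = 0.998). It was 0.013 without vector replicate 2 and 0.052 without LGP2 replicate 2. The nearest patterns were those of ANAPC13, ATP1B1 and C1D, at distances of 0.030, 0.0425 and 0.048 beside a median of 0.41.

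IL11, a cytokine with roles in bone, fibrosis and decidualisation, had the fewest counts among the member ligands IL6, LIF and IL11. Its gene lies at chr19:55364389-55370463 on the minus strand and is protein coding. IL11 had 332 and 177 counts in vector replicates 2 and 3, and 163 and 361 in LGP2 replicates 2 and 3. These are 5.19, 2.97, 2.91 and 5.70 CPM. A library of each group was high and a library of each group low, with Poisson 95% intervals of 4.65 to 5.78 and 5.13 to 6.32 CPM for the high libraries and 2.55 to 3.44 and 2.48 to 3.39 CPM for the low ones. Between LGP2 and vector the log2 fold change was 0.013 (95% interval -0.87 to 0.89, SE 0.40, edgeR adjusted p = 0.9998). It ran from -0.53 without LGP2 replicate 3 to 0.54 without vector replicate 2, and was 0.40 without LGP2 replicate 2 and -0.37 without vector replicate 3. CD24, FCMR and MARCHF4 had the nearest patterns, at distances of 0.084, 0.14 and 0.20 beside a median of 0.96. CD24 was at 9.15 and 4.88 CPM in the vector libraries and at 4.84 and 9.86 CPM in the LGP2 libraries.

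IL6ST, the gene of the shared signal-transducing chain gp130, was higher in both LGP2 libraries than in both vector libraries. It lies at chr5:55935095-55994993 on the minus strand and is protein coding. IL6ST had 4703 and 5670 counts in vector replicates 2 and 3, and 6460 and 11020 in LGP2 replicates 2 and 3. These are 73.6, 95.03, 115 and 174 CPM. The lowest LGP2 library stood above the highest vector library by 0.28 on the log2 scale, and the most distant pair of libraries differed by 1.24. The group levels were 84.3 ± 15.2 CPM in the vector group and 145 ± 41.6 CPM in the LGP2 group (SD, n = 2 per group). On the log2 scale LGP2 over vector was 0.73 (95% interval 0.31 to 1.16, SE 0.19, edgeR adjusted p = 0.937), so the gene was not called. As the groups did not overlap, leaving out 1 library could hardly turn the sign of this log2 ratio. It ran from 0.43 without LGP2 replicate 3 to 0.99 without LGP2 replicate 2. It passed without vector replicate 3, at 0.87 (adjusted p = 4.1e-04), again in a fit that took its spread from the LGP2 pair. Groups with LGP2 higher and no overlap were found for 19.0% of all tested genes. Within the LGP2 group IL6ST was 1.51-fold higher in replicate 3 than in replicate 2. Of the 10784 tested genes that averaged at least 5 CPM, 4.0% differed more between these libraries, and the median gene differed 1.12-fold.

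The ligand-specific chain IL6R, which binds IL6 itself, was low and differed little. It lies at chr1:154405193-154469450 on the plus strand and is protein coding. IL6R was at 12.4 and 12.9 CPM in vector replicates 2 and 3 and at 10.5 and 12.2 CPM in LGP2 replicates 2 and 3. Both LGP2 libraries were lower than both vector libraries, by as little as 0.017 on the log2 scale, and 13.3% of all tested genes showed groups apart in this direction. The log2 ratio of LGP2 to vector was -0.20 (95% interval -0.64 to 0.25, SE 0.20, edgeR adjusted p = 0.998).

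LIFR, the chain for LIF, lies at chr5:38474963-38608354 on the minus strand and is protein coding. LIFR had 496 and 817 counts in vector replicates 2 and 3, and 750 and 1104 in LGP2 replicates 2 and 3. These are 7.76, 13.7, 13.4 and 17.4 CPM. Vector replicate 2 was low, while vector replicate 3 and LGP2 replicate 2 were nearly equal, so the groups overlapped. Between LGP2 and vector the log2 fold change was 0.49 (95% interval -0.089 to 1.06, SE 0.26, edgeR adjusted p = 0.998), and it ran from 0.17 without vector replicate 2 to 0.89 without vector replicate 3. LIFR differed 1.76-fold between the vector libraries, and 3.25% of the 10784 genes differed more.

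OSMR, the chain for oncostatin M and a marker of mesenchymal glioblastoma cells, varied little between libraries. It lies at chr5:38845858-38945596 on the plus strand and is protein coding. OSMR was at 106 and 128 CPM in vector replicates 2 and 3 and at 126 and 137 CPM in LGP2 replicates 2 and 3. Vector replicate 2 was the lowest library, and the groups overlapped. On the log2 scale LGP2 over vector was 0.13 (95% interval -0.19 to 0.44, SE 0.14, edgeR adjusted p = 0.998). It was 0.042 without vector replicate 2 and 0.22 without vector replicate 3.

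STAT3, the transcription factor that the receptors activate, was present at similar levels in all libraries. It lies at chr17:42313324-42388568 on the minus strand and is protein coding. STAT3 was at 159 and 176 CPM in vector replicates 2 and 3 and at 160 and 146 CPM in LGP2 replicates 2 and 3. The groups overlapped, with vector replicate 3 highest and LGP2 replicate 3 lowest. The log2 ratio of LGP2 to vector was -0.17 (95% interval -0.49 to 0.14, SE 0.14, edgeR adjusted p = 0.998). It was -0.095 without LGP2 replicate 3. Transcript counts say nothing of STAT3 phosphorylation, the step that activates the protein.

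SOCS3, the STAT3-induced inhibitor of gp130 signalling, showed no shift between the groups beyond the spread of the libraries. It lies at chr17:78356778-78360077 on the minus strand and is protein coding. SOCS3 was at 43.3 and 51.9 CPM in vector replicates 2 and 3 and at 55.4 and 40.6 CPM in LGP2 replicates 2 and 3. The LGP2 libraries held both the highest and the lowest value. Between LGP2 and vector the log2 fold change was -0.029 (95% interval -0.44 to 0.39, SE 0.19, edgeR adjusted p = 0.998), and its sign turned with library totals as the only scaling (0.011), without vector replicate 3 (0.052) and without LGP2 replicate 3 (0.19). In vector replicate 2, where IL6 was highest, SOCS3 was not raised, and its level there was the second lowest of the libraries. A link between the levels of these genes was not tested.

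**Figure D3:**
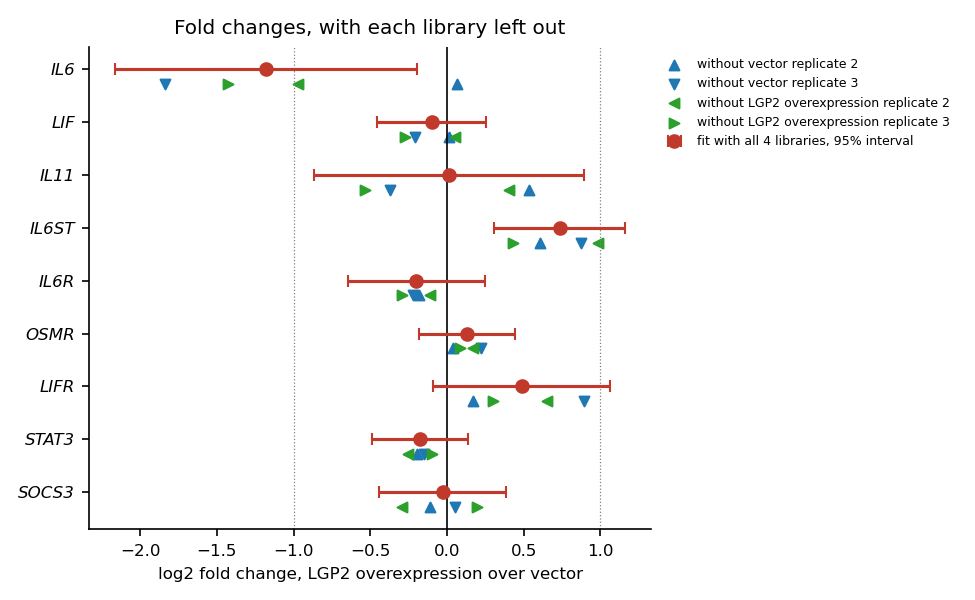
Log2 fold change of LGP2 overexpression over vector for each gene, as red points with 95% intervals from edgeR, and as triangles with each library left out. Dotted lines mark a 2-fold change. IL6 moves from -1.84 to 0.064 with the vector library that is left out, while IL6ST stays between 0.43 and 0.99.

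Strand use in counting is not given in the sources used here, so reads of a member and of a gene on the other strand may not be separable. In GENCODE 29 no member shares an exon with a gene of its own strand, and 5 members overlap an exon of a gene on the other strand. The partners of IL6 and LIF that were in the table had few counts beside these ligands, while those of LIFR and OSMR had more. AC073072.1, antisense to IL6, had 2 to 8 counts per library, and STEAP1B, which also overlaps IL6, had 52 to 85. AC004264.1, antisense to LIF, had 0 to 82 counts. LIF-AS1, also antisense to LIF, and AC008914.1, antisense to IL6ST, were not in the table, so their counts are not known. LIFR-AS1 had 95 to 108 counts, beside 496 to 1104 for LIFR. RICTOR, an mTOR complex subunit gene that overlaps OSMR, had 1151 to 1636 counts, beside 6750 to 8697 for OSMR, and a log2 fold change of 0.16 (edgeR SE 0.21 and adjusted p = 0.998).

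The rest of the pathway was read from 5 lists of 57 genes in all, of which 51 were tested. By edgeR 0 rose and 0 fell, and DESeq2 and limma-voom also called 0. At an unadjusted p under 0.05, 1 was higher and 5 were lower, beside 3.0% and 1.46% of all tested genes.

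Of 12 other ligands and receptors of the family, 8 were tested, and their median log2 fold change was -0.26 with 7 below 0. OSM, IL27, IL31 and CNTFR were not in the table. CLCF1, a ligand of the CNTF receptor, was among the 2 most abundant per length. CLCF1 was at 8.29 and 5.00 CPM in the vector libraries and 7.26 and 6.11 CPM in the LGP2 libraries, with a log2 fold change of -0.0485 that was 0.43 without vector replicate 2. IL11RA, the chain that binds IL11, had a log2 value of -0.28 (SE 0.28) for LGP2 over vector, and 0.084 without vector replicate 3, and IL27RA had 0.13 (SE 0.25), which was 0.056 without LGP2 replicate 2. On the same strand IL11RA shares exons with GALT and AL162231.3, and CLCF1 with AP003419.1, so the counts of IL11RA and CLCF1 are uncertain.

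The 8 kinases, adaptors and related signalling genes were all tested, with a median of 0.14 and 5 above 0. Their median depended on the vector libraries, at -0.007 without vector replicate 2 and 0.44 without vector replicate 3. GRB2, an adaptor of RAS signalling, was at 144 and 151 CPM in the vector libraries and 152 and 143 CPM in the LGP2 libraries. SOS1, the RAS exchange factor, had the highest value of the list at 0.52 (SE 0.26), which was 0.21 without vector replicate 2 and 0.92 without vector replicate 3. TYK2, a Janus kinase, had the lowest at -0.21 (SE 0.17), which was -0.34 without vector replicate 2 and -0.070 without vector replicate 3. PTPN11, the phosphatase SHP2, was at 0.31 (edgeR SE 0.20 and adjusted p = 0.998) with groups that overlapped, and passed only without vector replicate 3, at 0.63 (adjusted p = 0.0194).

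Of 9 inhibitors and receptor sheddases 8 were tested, with a median of 0.15 and 6 above 0, and PTPN6 was removed by the filter. The median ran from 0.029 without LGP2 replicate 3 to 0.32 without LGP2 replicate 2. ADAM10, a protease that can cleave IL6R from the cell surface, was at 52.4 and 72.0 CPM in the vector libraries and 85.1 and 96.5 CPM in the LGP2 libraries, and its groups did not overlap. Its log2 fold change was 0.50 (edgeR SE 0.16 and adjusted p = 0.998), and it passed without vector replicate 3, at 0.69 (adjusted p = 0.00710), and was at 0.34 without vector replicate 2. PTPN1 and PIAS3, a phosphatase and an inhibitor of STAT3, had log2 fold changes of -0.041 and -0.039, and PIAS3 was at 0.14 without LGP2 replicate 3.

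Of 20 STAT3 target genes 19 were tested, and 15 lay below 0 with a median of -0.13. This median ran from -0.26 without LGP2 replicate 2 to -0.043 without LGP2 replicate 3. CEBPB, a transcription factor of the acute phase response, was at 189 and 186 CPM in the vector libraries and 198 and 165 CPM in the LGP2 libraries. TIMP1, a metalloprotease inhibitor, was at -0.13 (SE 0.17) on the log2 scale, and at 0.083 without vector replicate 2. CHI3L1, a secreted lectin of mesenchymal glioma, had the highest value at 0.43 (SE 0.25), and 0.014 without LGP2 replicate 3. FOS had the lowest at -0.67 (SE 0.28), and its groups overlapped, with 9.46 CPM in vector replicate 2 and 9.83 CPM in LGP2 replicate 2. It passed without vector replicate 2, at -1.02 (adjusted p = 0.0487), and was at -0.21 without vector replicate 3. FOS, PIM1, MYC and FOSL2 were the 4 targets lower at an unadjusted p under 0.05, with PIM1 at -0.50 (SE 0.19), MYC at -0.45 (SE 0.18) and FOSL2 at -0.38 (SE 0.14). MYC passed without vector replicate 3, at -0.68 (adjusted p = 0.00506), and was at -0.19 without vector replicate 2, while PIM1 was at -0.32 without LGP2 replicate 3. PIM1, MYC and FOSL2 are named here after their values were seen. Growth factors also induce FOS and MYC, so they are not targets of STAT3 alone.

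The 8 regulators of IL6 transcription and mRNA decay had a median of -0.18, with 7 below 0. Leaving out vector replicate 3 gave a median of -0.27, and leaving out vector replicate 2 gave -0.11. RELA, the NF-kB subunit that drives IL6, was at 75.4 and 63.7 CPM in the vector libraries and 52.8 and 64.6 CPM in the LGP2 libraries. ZFP36, which binds IL6 mRNA and speeds its decay, was at 12.1 and 11.4 CPM in the vector libraries and 9.44 and 6.79 CPM in the LGP2 libraries, with a log2 fold change of -0.58 (edgeR SE 0.24 and adjusted p = 0.998) that was -0.86 without LGP2 replicate 2 and -0.35 without LGP2 replicate 3. ELAVL1, which stabilises such mRNAs, had a log2 fold change of -0.24 (SE 0.14) and NFKB1 one of 0.12 (SE 0.19), while leaving out vector replicate 2 gave 0.22 and leaving out vector replicate 3 gave 0.012.

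**Figure D4:**
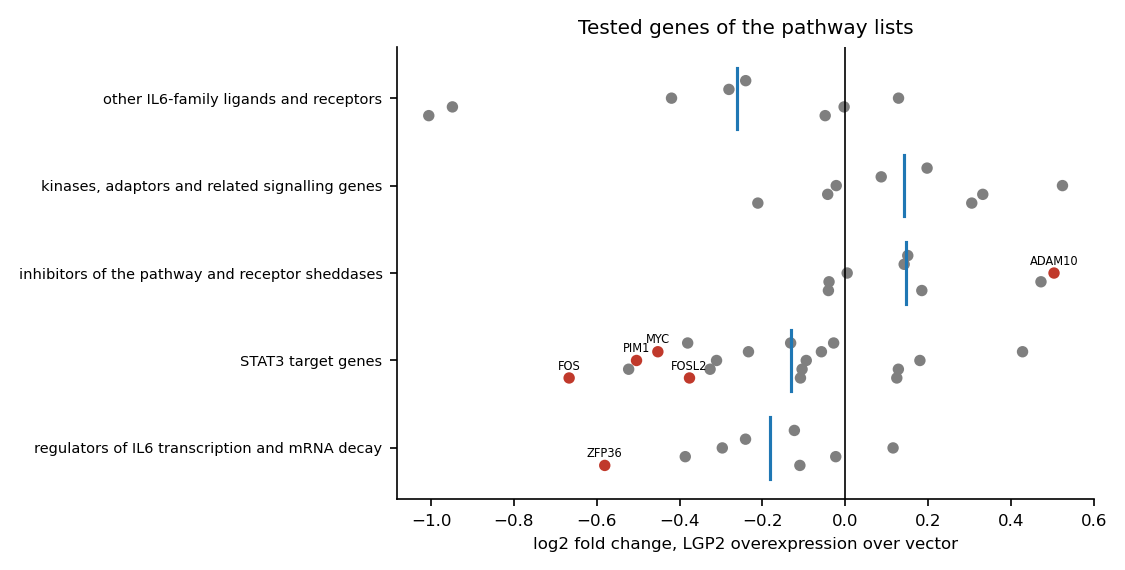
Log2 fold change of LGP2 overexpression over vector for the tested genes of the 5 lists, with 1 point per gene and a blue line at each list's median. Red points have an unadjusted p under 0.05, and no gene passed after adjustment over all genes tested.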

How the data were processed

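For 2 vector and 2 LGP2 overexpression libraries the authors deposited a table of raw counts by gene symbol. Per the labels' protocols, TRIzol was used for extraction and a SMARTER kit for mRNA libraries. Human symbols fill the table, but the submitters' processing notes name a mouse build, mm10. The sources used here do not name the aligner, the counting tool, the annotation or the handling of strand. Levels are CPM, counts per 1000000 counts of the library total. Counts were tested with edgeR 4.0.16 in R 4.3.3 (quasi-likelihood, two-sided, TMM, filterByExpr by group, no covariate), which kept 17863 of 20913 genes, and p-values were adjusted over all of them by Benjamini-Hochberg and called under 0.05. Fold changes are LGP2 over vector, their SE comes from the F statistic, and the fit was tested on simulated data. Positions, merged exon lengths and overlaps come from GENCODE 29 (GRCh38), and promoters from RefSeq (GRCh38.p14), matched for 8 of the 9 members, all but LIF.

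The members and lists were chosen with earlier results of these data known. Beside all members, the text names from each list the 2 tested genes most abundant per length, the highest and the lowest fold change among those averaging at least 5 CPM and any called gene, and for each ligand the 3 nearest genes that average at least 5 CPM, from log2 CPM with TMM scaling and a prior count of 2. Some genes that this rule takes are not reported here. Other genes named were chosen after their values were seen. Alternatives were a replicate block, each library left out, other scalings and filters, DESeq2 1.42.0 and limma-voom (limma 3.58.1).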

Additional observations from a re-analysis of the deposited data

How the results depend on the processing

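With all libraries edgeR called 3 genes higher, DHX58 among them, and 0 lower. DESeq2 called 14 higher and 9 lower, limma-voom 4 and 2, and the fit without a filter 1 and 0. At least 5 CPM in 2 libraries gave 4 and 2. Leaving out 1 library gave 1 to 291 higher and 1 to 141 lower, the largest counts without vector replicate 3. No member was called under any of the 12 alternatives except IL6 and IL6ST without vector replicate 3. With each library left out in turn, log2 fold changes went from -1.84 to 0.064 for IL6, -0.27 to 0.052 for LIF, -0.53 to 0.54 for IL11, 0.43 to 0.99 for IL6ST and -0.29 to 0.19 for SOCS3. With library totals as the only scaling SOCS3 was at 0.011, where the median of all genes moved from -0.0080 to 0.038. IL6ST, IL6R, OSMR, LIFR and STAT3 kept their sign under all 12. For IL6ST and IL6R the groups did not overlap, so leaving out 1 library could hardly turn the sign. The cause of these changes was not tested. Each fit that left out a library also held fewer libraries. Both groups carry the replicate numbers 2 and 3. The deviations of same-numbered libraries from their group means correlated at 0.182 across 10784 genes, which are not independent replicates. The labels tie the numbers to no shared day or culture, so they were not used as pairs. With the replicate block edgeR called 5 higher and 3 lower, with 0 members among them. With 2 libraries a group, the 95% intervals of IL6, IL6ST and LIFR include a 2-fold change.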

Other observations

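Ratios between the receptor chains were also compared. Per length of exon, IL6ST stood at 4.13 and 5.11 times IL6R in vector replicates 2 and 3, and at 7.60 and 9.89 times IL6R in LGP2 replicates 2 and 3. Both LGP2 ratios were higher than both vector ratios. The ratio of IL6ST to OSMR was 0.538 and 0.572 in vector and 0.705 and 0.978 with LGP2, while that of IL6ST to LIFR was 12.1 and 8.86 in vector and 12.7 in LGP2 replicate 3, with LGP2 replicate 2 between the vector values. These ratios rest on the member values given above, were computed after those values were seen, and were not tested. Among the ligands, IL6 stood at 6.01 times LIF in vector replicate 2 and at 1.84 to 2.02 times LIF in the other libraries.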
